A study of Mus musculus with 6 samples.

Results

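The 9 genes described here encode the AMPA-type glutamate receptor of fast excitatory synapses: 4 pore subunits (Gria1, Gria2, Gria3 and Gria4) and 5 transmembrane AMPA receptor regulatory proteins, or TARPs (Cacng2, Cacng3, Cacng4, Cacng7 and Cacng8). They were taken by name from count tables of 32531 gene rows, and all 9 were found. The study used TRAP (translating ribosome affinity purification) on the thalamus of untreated adult control mice of the line Slc17a6-EGFP/Rpl10a (JX883). The method tags the ribosomes of selected cells with EGFP, so that antibodies to EGFP can recover them, with the RNA they hold, from a tissue homogenate. All 6 libraries came from this 1 line: 3 of immunopurified RNA (IP), taken as RNA on the ribosomes of tagged cells, and 3 of thalamic Input. The tag is on Rpl10a, and the line carries the name of Slc17a6, which encodes the glutamate transporter VGLUT2. The labels name ribosomal-bound RNA as the molecule of Input as well, so taking Input as RNA of the whole tissue is an assumption. Separate animals are not stated for the replicates. The p-values thus reflect only how these libraries varied, which can be technical variation.

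AMPA receptors are tetramers that open a cation pore when they bind glutamate and carry most of the fast excitatory current in the brain. The subunit encoded by Gria2 makes the pore nearly impermeable to calcium, because its messenger RNA is edited at the Q/R site in the pore loop by the enzyme encoded by Adarb1. TARPs bind the pore subunits, bring receptors to the synapse through scaffold proteins of the PSD-95 family, and slow receptor closing. In the thalamus, relay neurons receive sensory and cortical input through these receptors. Glial cells, oligodendrocyte precursors among them, also express some of the subunits.

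The sequence around the Q/R site is shown because RNA editing there sets Gria2 apart from the other pore subunits. The genomic codon does not, since Gria1 and Gria3 hold the same CAG. Each line is the coding strand from GENCODE M21 (GRCm38, the assembly of mm10), 5′ to 3′, from 30 bases before the site to the end of its exon, with the codon of the site in capitals.
Gria1: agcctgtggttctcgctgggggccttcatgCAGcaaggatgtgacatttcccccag
Gria2: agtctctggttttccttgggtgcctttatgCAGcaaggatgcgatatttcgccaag
Gria3: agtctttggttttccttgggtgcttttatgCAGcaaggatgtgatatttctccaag
Gria4: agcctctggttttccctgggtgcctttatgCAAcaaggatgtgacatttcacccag
These lie at chr11:57243064-57243119 (plus strand), chr3:80706888-80706943 (minus), chrX:41610235-41610290 (plus) and chr9:4464114-4464169 (minus), in exons 11, 11, 11 and 12 of the annotated transcripts. Over the 56 bases, Gria2 and Gria3 differ at 4 positions, and Gria1 differs from each of them at 11. The genome of Gria2 holds the unedited codon CAG, and editing was not measured, since the deposited tables hold 1 sum of reads per gene.

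The same limit holds for the splice forms called flip and flop, which differ in 1 exon near the last transmembrane segment and in how fast the receptor desensitises. The flip and flop exons of Gria2 are shown, with capitals where they differ, because reads of both fall into 1 count.
Gria2 flip: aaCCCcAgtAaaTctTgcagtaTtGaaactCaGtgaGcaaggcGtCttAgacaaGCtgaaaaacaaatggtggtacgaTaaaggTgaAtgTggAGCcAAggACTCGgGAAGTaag
Gria2 flop: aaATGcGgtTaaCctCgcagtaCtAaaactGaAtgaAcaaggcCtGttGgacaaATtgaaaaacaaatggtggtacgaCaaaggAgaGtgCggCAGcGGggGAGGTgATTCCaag
They lie at chr3:80690404-80690518 and chr3:80691320-80691434 on the minus strand, each is 115 bases long, and they differ at 36 positions. The mix described below is therefore that of genes, not of splice forms or edited forms.

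The last 30 coding bases of the TARPs are shown because they separate 4 of the genes from Cacng7. The level of Cacng7 moved the other way from those of Cacng2 and Cacng3, while Cacng4 and Cacng8 were not called. A link of the coding end to the levels was not tested. Capitals mark the last 4 codons before the stop, which in type I TARPs (Cacng2, Cacng3, Cacng4 and Cacng8) encode the end that binds PDZ domains of scaffold proteins.
Cacng2: acagccaaccgccggACCACGCCCGTAtga
Cacng3: ccggccaacagacgtACCACGCCTGTCtga
Cacng4: atgctgaaccggcggACGACTCCCGTGtga
Cacng7: catctccacatctccACTTCGCCGTGCtga
Cacng8: acgctcaacaggaaaACCACGCCCGTGtag
They lie at chr15:77995149-77995178 (minus strand), chr7:122768817-122768846 (plus), chr11:107734780-107734809 (minus), chr7:3366919-3366948 (plus) and chr7:3415576-3415605 (plus). In the 12 capital bases, Cacng2 differs from Cacng8 at 1 position, from Cacng3 at 2 and from Cacng4 at 3, and from Cacng7, a type II TARP, at 6.

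The IP libraries held between 52068141 and 54421395 gene reads and the Input libraries between 44081149 and 47340321. Levels are given in CPM, read counts relative to the library total after scaling by TMM factors, and 3 reads corresponded to 0.055 to 0.068 CPM. Slc17a6, a check on the labels, was higher in IP in 3 of 3 replicates, although at a log2 fold change of 1.27 it missed the threshold (edgeR adjusted p = 0.206). Its groups overlapped, since Input replicate 1, at 3153 CPM, lay above IP replicates 2 and 3. Of 7 thalamic glutamatergic markers, 4 rose. The summed level of all 7, Slc17a6 among them, was 5507 to 9585 CPM in IP and 1593 to 5048 CPM in Input. Of markers of other cells, 7 of 7 for oligodendrocyte precursors fell (sums of 6.71 to 8.70 CPM in IP and 176 to 196 CPM in Input), as did 7 of 7 for mature oligodendrocytes (149 to 268 and 3380 to 4967 CPM). For astrocytes 7 of 8 fell (304 to 787 and 1320 to 2774 CPM), for microglia 5 of 6 (1.88 to 2.62 and 35.8 to 57.2 CPM), for GABAergic neurons 4 of 6 (106 to 263 and 835 to 1393 CPM) and for endothelium 3 of 5 (0.865 to 1.69 and 5.68 to 12.1 CPM). Slc1a2 made up most of the astrocyte sums, at 288 to 770 CPM in IP and 1073 to 2323 CPM in Input. Its log2 fold change was -1.62, whereas the median over the 8 astrocyte markers was -4.4. Tie1, an endothelial receptor gene, was at 0 in all IP libraries, and no other marker listed was. Input replicate 3 stood apart: relative to the mean of the other Input libraries, the median ratio was 8.37 over 9 markers of cortical and hippocampal excitatory neurons and 5.12 over 7 striatal markers. The sum of the former differed less, at 1930 CPM there against 1145 and 1092 CPM in Input replicates 1 and 2. That of the latter was 773 CPM against 77.4 and 183 CPM. Among the former, Slc17a7 had 93.2 CPM there against 138.5 and 49.0 CPM, and Camk2a 1379 against 738 and 774 CPM. Prox1 was lower there, at 143 CPM against 254 and 226 CPM, and Emx1 had 1 read over all Input libraries. Between groups, 0 of the 8 tested cortical and hippocampal markers and 1 of 7 striatal ones (lower) were called.

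The pore subunit genes were at lower levels in IP than in Input. Gria2 and Gria3 fell to 50.3% and 43.5% of their Input level, Gria1 stood at 61.1% and Gria4 at 76.4%, and the latter pair did not pass the test. Gria2 (chromosome 3 from 80681450 to 80802835) had 310.3, 154 and 176 CPM in IP replicates 1, 2 and 3, and 469.7, 323 and 481 CPM in Input replicates 1, 2 and 3. All IP values lay below all Input values. Its log2 fold change was -0.99 ± 0.29 (SE, n = 3 against 3; edgeR quasi-likelihood adjusted p = 0.0370), with a lower value in IP in 3 of 3 replicates. In bulk RNA, fewer cells of a type in a sample and less RNA per cell cannot be told apart.

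Gria3, on the X chromosome from 41400854 to 41678601, encodes the subunit with the largest fall of the 4. It had 167, 74.2 and 106 CPM in IP and 321, 181 and 295 CPM in Input, in the order of replicates 1 to 3. The groups did not overlap, and the log2 fold change was -1.20 ± 0.33 (SE, n = 3 against 3; edgeR adjusted p = 0.0275). Gria1 (chromosome 11 from 57011387 to 57330244), whose subunit is widely studied in synaptic plasticity, had 142, 68.1 and 66.9 CPM in IP and 180.1, 125 and 148 CPM in Input. Here IP replicate 1 lay above Input replicate 2, so the groups overlapped. Its log2 fold change was -0.71 ± 0.31 and missed the threshold (edgeR adjusted p = 0.129), but with the replicate number as a block it was -0.79 ± 0.18 and passed (edgeR adjusted p = 0.00620).

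Gria4 (chromosome 9 from 4417896 to 4796234), whose subunit forms receptors with fast kinetics, had 119, 71.3 and 84.3 CPM in IP and 169, 113 and 77.2 CPM in Input. Replicates 1 and 2 were lower in IP and replicate 3 was higher, and the log2 fold change was -0.39 ± 0.31 (edgeR adjusted p = 0.395, not called). Its value without Input replicate 3, the library with the highest sums of cortical and striatal markers, was -0.61 and did not pass either (edgeR adjusted p = 0.147). Without Input replicate 1 the log2 fold change of Gria4 was close to 0, at -0.049 (edgeR adjusted p = 0.920). Of all genes tested, 25.2% were called (9.6% higher and 15.6% lower in IP), and 2 of 4 pore subunits were called lower. In IP replicate 1 all 4 were highest of the 3 IP libraries, at a median of log2 0.90 above the mean of the other IP libraries, and Slc17a6 was highest there too, with 6489 CPM against 2193 CPM in replicate 2 and 2200 CPM in replicate 3.

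**Figure D1:**
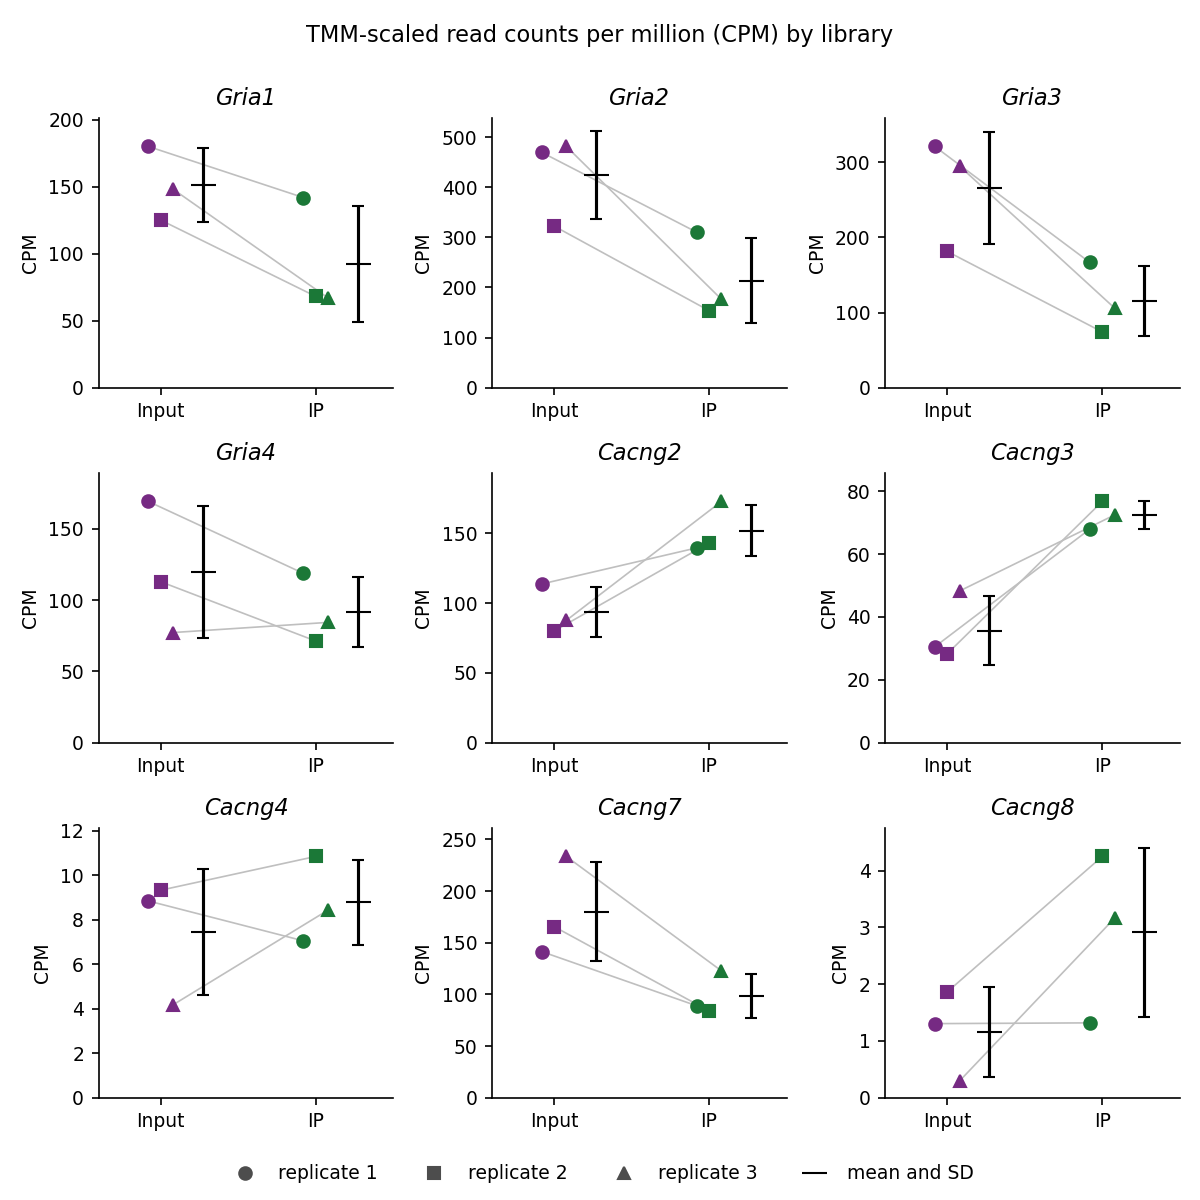
TMM-scaled CPM of each gene (vertical axes, from 0) in the Input and IP libraries, with grey lines joining libraries of the same replicate number and bars for mean and SD (n = 3). The IP points of Gria2 and Gria3 lie below, and those of Cacng2 and Cacng3 above, all Input points, while IP replicate 1 is the highest IP point for all 4 pore subunits.

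The TARP genes went both ways. Cacng2 and Cacng3 rose to 162% and 203% of their Input level, while Cacng7 fell to 54.7%. Cacng2 encodes stargazin, the founding TARP, and lies on chromosome 15 from 77991748 to 78120028. It had 139.6, 143 and 173 CPM in IP and 114, 79.9 and 87.6 CPM in Input. The groups did not overlap, and the log2 fold change was 0.70 ± 0.20 (SE, n = 3 against 3; edgeR adjusted p = 0.0334). Over 5.86% of its exon length (323 bases) an antisense gene, A730060N03Rik, overlaps, and reads of the pair cannot be told apart without a known strand setting. The call of Cacng2 ended with upper-quartile factors (0.61, edgeR adjusted p = 0.0519) and with a stricter filter on low counts (0.57, edgeR adjusted p = 0.0574).

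Cacng3, the closest relative of Cacng2 among these TARPs by coding sequence (72.8% identical bases), lies on chromosome 7 from 122670492 to 122769393. It had 68.0, 76.7 and 72.4 CPM in IP and 30.5, 28.3 and 48.3 CPM in Input. Its IP values varied little, with an SD of 6.07% of the mean, and all lay above the Input values. The log2 fold change was 1.02 ± 0.24 (SE, n = 3 against 3; edgeR adjusted p = 0.0164). Cacng3 had its highest Input level in replicate 3, and without that library its log2 fold change was 1.31 (edgeR adjusted p = 0.00489).

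Cacng7, a type II TARP that lacks the typical PDZ-binding end, lies on chromosome 7 from 3332955 to 3368221. It had 89.0, 84.0 and 123 CPM in IP and 141, 166 and 233 CPM in Input. The groups did not overlap, all 3 replicates were lower in IP, and the log2 fold change was -0.87 ± 0.24 (SE, n = 3 against 3; edgeR adjusted p = 0.0310). Input replicate 3 held the most Cacng7 of any library, and without it the log2 fold change was -0.63 (edgeR adjusted p = 0.0758). The part of other cell types in these differences was not tested. The marker sums above moved in the same direction as Cacng7 and the pore subunits for all glial lists and for the GABAergic neuron and endothelial lists. That of the thalamic glutamatergic list moved the other way. For the cortical and hippocampal list the groups overlapped, at 1312 to 1563 CPM in IP and 1092 to 1930 CPM in Input. So did the striatal sums, at 55.6 to 111 CPM in IP and 77.4 to 773 CPM in Input.

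Cacng4 and Cacng8 were scarce. Cacng4 (chromosome 11 from 107732357 to 107794557) had 7.06, 10.9 and 8.44 CPM in IP and 8.85, 9.33 and 4.18 CPM in Input. Its log2 fold change was 0.24 ± 0.39 (edgeR adjusted p = 0.704, not called), and it was -0.038 without Input replicate 3. Cacng8 (chromosome 7 from 3390683 to 3415648), best known from the hippocampus, had 65, 226 and 172 reads in IP and 60, 91 and 13 reads in Input. Its log2 fold change was 1.33 ± 0.78 (edgeR adjusted p = 0.245, not called), and IP was higher in 3 of 3 replicates. At 1.32 against 1.30 CPM, replicate 1 hardly differed.

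In all, 2 of 9 genes rose and 3 fell by edgeR, and with the replicate block 2 rose and 4 fell, against 35.1% called of all genes tested in that fit (15.9% higher and 19.2% lower). By DESeq2, 32.5% of all genes were called (12.7% higher and 19.8% lower), and by limma-voom 27.0% (10.6% higher and 16.5% lower). The groups did not overlap for 5 of the 9, against 44.9% of all genes tested (19.9% higher and 25.0% lower in IP), so separation of the groups alone was common in these data. The median log2 fold change was -0.85 for the pore subunits and 0.70 for the TARPs, and -0.04 over all 16496 genes tested. In the order of all tested genes by log2 fold change, 20.9% lay below Gria3 and 91.8% below Cacng3.

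**Figure D2:**
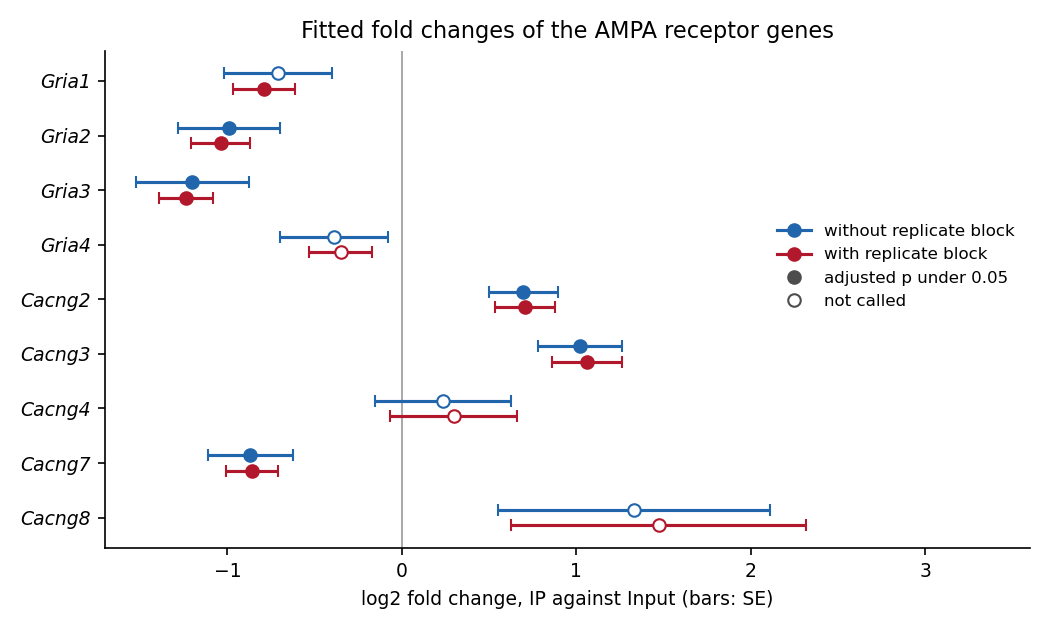
Log2 fold change of IP against Input for the 9 genes (horizontal axis, bars are SE) by edgeR without (blue) and with (red) the replicate block, filled where the adjusted p was under 0.05. Gria2, Gria3 and Cacng7 lie left of 0 and Cacng2 and Cacng3 right of 0 with filled symbols in both fits, and Gria1 is filled with the block alone.

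The mix of subunits was compared on CPM per kilobase (kb) of annotated exon, since longer transcripts give more reads. Summed over the 4 pore subunits, the level was 104, 51.4 and 61.2 CPM per kb in IP and 162, 104 and 138 CPM per kb in Input. The TARP sum was 92.7, 96.9 and 117 CPM per kb in IP and 98.8, 103 and 140.2 CPM per kb in Input. The ratio of the TARP sum to the pore subunit sum was 1.56 ± 0.58 in IP and 0.874 ± 0.229 in Input (SD, n = 3). It was higher in IP in 3 of 3 replicates, but IP replicate 1, at 0.895, lay within the Input range (exact permutation test, two-sided, p = 0.3, adjusted p = 0.333 over 10 values). This overlap depends on the length used: per kb of coding sequence and by plain CPM the IP and Input ratios did not overlap (exact permutation test, two-sided, p = 0.1 each).

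Among the TARPs, the share of Cacng7 was 43.4%, 39.2% and 47.4% in IP and 64.7%, 72.5% and 75.3% in Input. The share of Cacng2 was 27.3%, 26.8% and 26.8% in IP and 20.9%, 14.1% and 11.3% in Input, so the IP libraries were nearly alike while the Input libraries spread. Cacng3 took 26.4%, 28.5% and 22.3% in IP and 11.1%, 9.86% and 12.4% in Input. For each of these 3 genes the groups did not overlap (exact permutation test, two-sided, p = 0.1 each, adjusted p = 0.2), and 0.1 is the smallest p that 3 against 3 libraries can give. Per kb, Cacng2 stood at 0.626 ± 0.059 of the Cacng7 level in IP and at 0.222 ± 0.090 in Input (SD, n = 3).

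The pore subunit mix shifted less. Gria4 took 18.2%, 22.0% and 21.8% of the pore subunits in IP and 16.6%, 17.3% and 8.88% in Input. Gria3 took 29.6%, 26.6% and 31.8% in IP and 36.5%, 32.2% and 39.3% in Input. For each of these genes IP and Input did not overlap (exact permutation test, two-sided, p = 0.1 each, adjusted p = 0.2). Per kb of coding sequence the Gria3 groups overlapped, with a difference of IP minus Input of -4.92 percentage points against -6.68 (exact permutation test, two-sided, p = 0.2). The share of Gria2 was 28.2% ± 0.6 in IP and 30.2% ± 2.8 in Input, and that of Gria1 21.8% ± 2.6 and 19.5% ± 1.2 (SD, n = 3), both with overlapping groups (exact permutation test, two-sided, p = 0.3 each, adjusted p = 0.333). Single libraries moved some of these differences of IP minus Input. Without Input replicate 3, that of Gria4 was 3.75 percentage points against 6.43, and that of Gria2 was -0.49 against -2.02. For Gria2 it was -3.28 without Input replicate 1. For Gria1 it was 1.35 without IP replicate 1 and 3.74 without IP replicate 3, against 2.27.

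**Figure D3:**
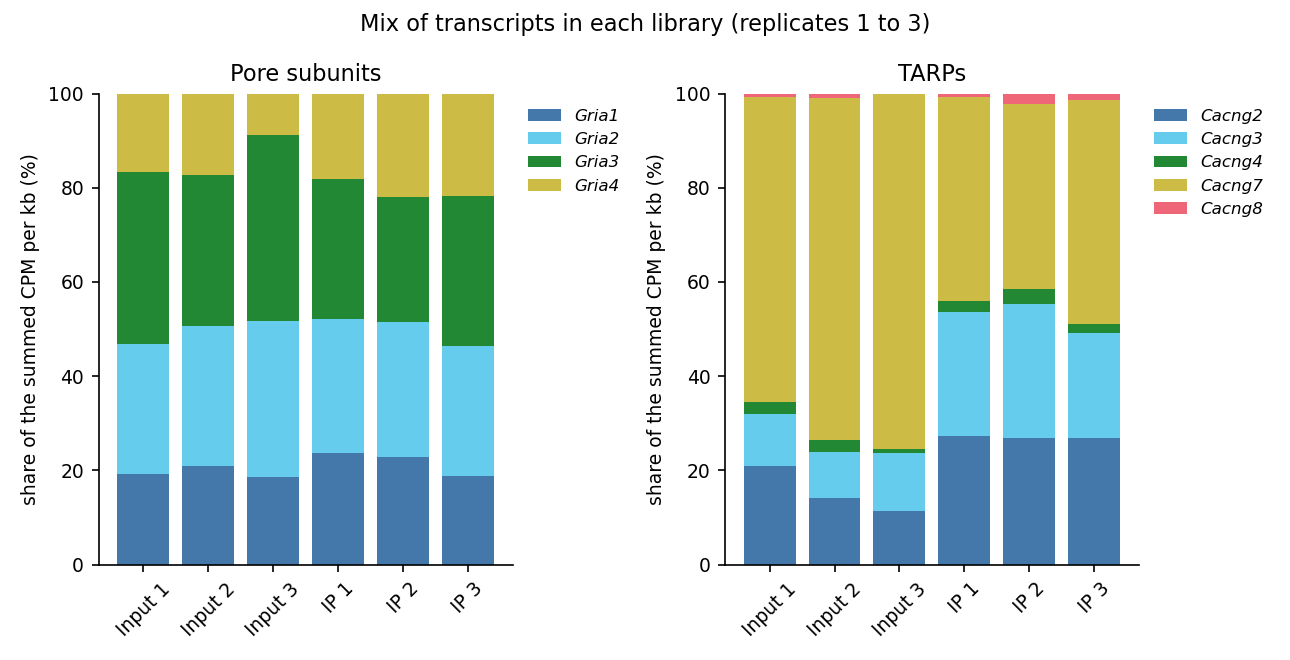
Stacked shares (%, vertical axes from 0 to 100) of the summed CPM per kb that each gene takes among the pore subunits (left) and the TARPs (right) in each library. The Cacng7 band is narrower in each IP library (39.2% to 47.4%) than in each Input library (64.7% to 75.3%), and the Gria1 and Gria2 bands differ little.

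By level per kb, the order in IP was Cacng7 (44.6 ± 9.5 CPM per kb), Cacng2 (27.6 ± 3.3), Cacng3 (26.1 ± 1.6), Gria3 (21.3 ± 8.6), Gria2 (20.4 ± 8.1), Gria1 (16.0 ± 7.4), Gria4 (14.5 ± 3.9), Cacng4 (2.51 ± 0.55) and Cacng8 (1.53 ± 0.78; SD, n = 3). The ranges of neighbours in this order overlapped except between Cacng7 and Cacng2 and between Gria4 and Cacng4. In Input the order was Cacng7 (81.5 ± 21.6 CPM per kb), Gria3 (48.9 ± 13.7), Gria2 (40.5 ± 8.4), Gria1 (26.1 ± 4.8), Gria4 (19.0 ± 7.4), Cacng2 (17.0 ± 3.2), Cacng3 (12.8 ± 3.9), Cacng4 (2.13 ± 0.81) and Cacng8 (0.608 ± 0.419). There Cacng7 stood clear of Gria3, Cacng3 of Cacng4, and Cacng4 of Cacng8. The order depends on the length used: per kb of coding sequence, Cacng2 came first in IP, at 157 ± 19 against 119.5 ± 25.6 CPM per kb for Cacng7. On that scale Cacng3 was just below Gria2 in IP (76.6 against 77.2 CPM per kb). In Input, Cacng2 (96.7) was above Gria3 (95.7), Gria1 and Gria4.

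**Figure D4:**
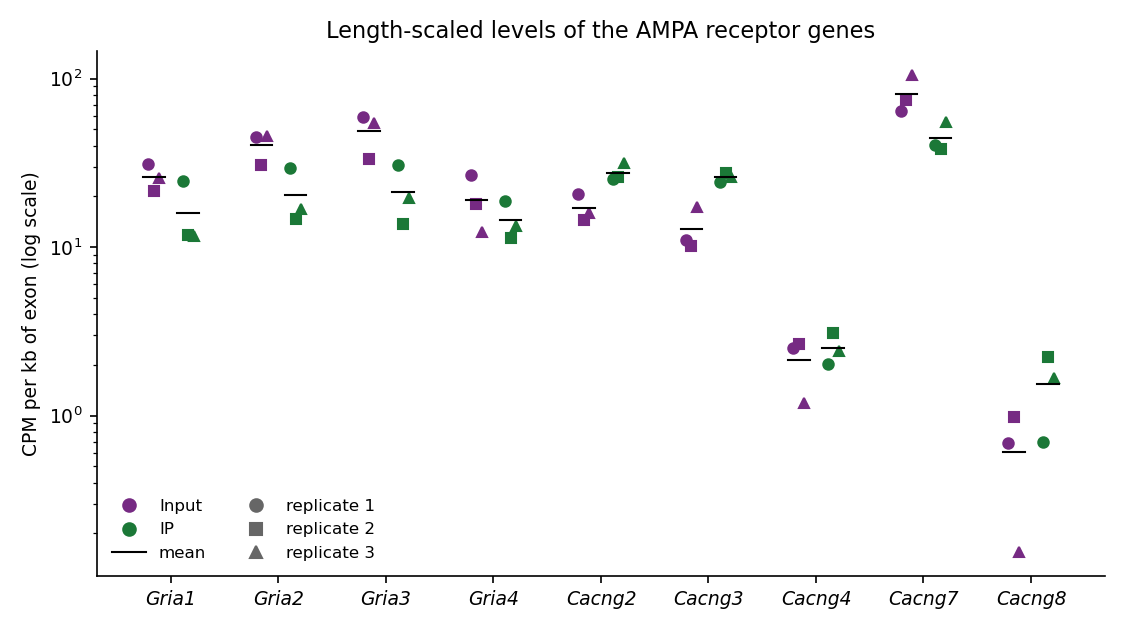
Level of each gene in CPM per kb of exon (log scale) in each Input and IP library, with a line at each mean. The means of Cacng2 and Cacng3 lie below those of all 4 pore subunits in Input (17.0 and 12.8 CPM per kb) and above them in IP (27.6 and 26.1 CPM per kb). In IP replicate 1, however, both genes lie below Gria2 and Gria3.

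Other proteins of the AMPA receptor complex were read from lists. For these and the lists below, the shares over all genes tested were 9.6% higher and 15.6% lower by edgeR. With the replicate block they were 15.9% and 19.2%. Of 20 further auxiliary proteins, 19 were tested, 5 rose and 1 fell, and the median was log2 0.47. With the replicate block 8 rose and 2 fell. Syndig1, which promotes synapse development, had 26.3, 39.0 and 34.6 CPM in IP and 15.4, 15.4 and 14.0 CPM in Input, a log2 fold change of 1.16 ± 0.23 (edgeR adjusted p = 0.00814). Olfm1 and Olfm2, secreted olfactomedins found in native receptor complexes, rose by log2 1.02 and 1.18 (edgeR adjusted p = 0.0185 and 0.0330). Cnih2, a cornichon that slows receptor closing, and Abhd12 were the other risers, by log2 0.98 and 0.77. Both were named after their values were seen. Shisa7 fell by 1.27 on the log2 scale, from 56.1, 71.0 and 119 CPM in Input to 42.5, 35.0 and 24.1 CPM in IP (edgeR adjusted p = 0.0211). Its call ended without IP replicate 2 or IP replicate 3 (edgeR adjusted p = 0.0681 and 0.0742), and without both libraries of replicate 3 its log2 fold change was -0.70 (edgeR adjusted p = 0.0989). Cacng5, a further type II TARP, was at 61.6 ± 21.0 CPM (SD, n = 3) in IP against 57.7 ± 31.4 CPM and was not called (edgeR adjusted p = 0.884). Cacng1 stayed below 2 CPM, and Cacng6 was at 0 reads in all 6 libraries.

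Of 26 scaffold and trafficking genes, 1 rose and 2 fell, and the median was log2 0.055. With the replicate block 8 rose and 5 fell. Nptx2, a secreted pentraxin that clusters AMPA receptors, rose by log2 1.32 ± 0.35 (edgeR adjusted p = 0.0268). Dlg1, which encodes the scaffold SAP97, fell by 1.36 ± 0.26 (edgeR adjusted p = 0.00762), and Arc, an activity-regulated gene of receptor endocytosis, fell by 2.18 ± 0.67 (edgeR adjusted p = 0.0443). Arc was highest in Input replicate 3, at 71.1 CPM against 19.6 and 22.0 CPM, and without that library its log2 fold change was -1.32 and not called (edgeR adjusted p = 0.142). It stayed called in 3 of 9 fits with a library or replicate number left out. Of 14 kinase and phosphatase genes, 3 rose and 0 fell by edgeR (5 higher and 1 lower at an unadjusted p under 0.05), and the median was log2 0.25. Blocked by replicate, 5 rose and 1 fell. The 3 risers were Prkar2b, Fyn and Prkacb, at log2 0.77, 0.67 and 0.56 (edgeR adjusted p = 0.0160, 0.0186 and 0.0336).

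Of the 3 RNA editing genes, Adar rose, with 176, 153 and 146 CPM in IP and 101, 90.6 and 100.1 CPM in Input (log2 fold change 0.70, edgeR adjusted p = 0.0174). Adarb1, the enzyme of the Gria2 Q/R site, was at 907 ± 34 CPM (SD, n = 3) in IP against 754 ± 252 CPM and was not called (edgeR adjusted p = 0.477), nor was Adarb2 (edgeR adjusted p = 0.426). Of 12 NMDA and kainate receptor subunits, 0 were called (edgeR; 1 higher and 0 lower at an unadjusted p under 0.05), and the median was log2 0.11. Blocked by replicate, 1 rose and 1 fell. Grin1, the obligatory NMDA receptor subunit, had a log2 fold change of 0.14 ± 0.22 and Grin2b of -0.43 ± 0.31. Grin2b was the gene that fell in the blocked fit, at -0.47 (edgeR adjusted p = 0.0327), and Grin3a, named after its value was seen, the one that rose, at 1.03 (edgeR adjusted p = 0.000547). Over all companion lists, the 13 called genes stayed called in 2 to 8 of the 9 fits with libraries left out, and 0 of 13 did without replicate 2.

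Over the 6 libraries, the genes with the pattern nearest to each pore subunit were ranked by the root mean square (RMS) difference of centred log2(CPM + 1) values, among 10626 genes. Nearest to Gria3 were Csf1 (RMS difference 0.043) and D930016D06Rik (0.13), and Gria2 ranked 4 (0.16). Nearest to Gria2 were St6gal1 (0.079) and Atp8a1 (0.12), with Gria3 at rank 16. Tgfbr3 and Sypl were nearest to Gria1 (0.087 and 0.096), and Lgr4 and Nipa1 to Gria4 (0.083 each). Gria1 ranked 30 for Gria2 and 106 for Gria3. In the ranking for Gria4, Gria1 came at 1556, Gria2 at 3920 and Gria3 at 5389. The added 1 shrinks differences of scarce genes. Csf1 (3.18 to 17.4 CPM) and D930016D06Rik (1.26 to 10.4 CPM) were scarce, and their log2 fold changes of -1.37 and -1.58 were larger falls than that of Gria3. These distances are over 6 libraries that share the IP and Input contrast, and are given as a description.

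The members also differ in length. Gria2 has 10486 bases of annotated exon, the other pore subunits 5437 to 6305, Cacng2 5510, Cacng3 2777 and Cacng7 2212. Tested genes with a matched length were split into 5 classes of nearly equal size, and the median log2 fold change went from 0.42 in the class of the shortest genes to -0.32 in that of the longest. Gria1, Gria2 and Gria4 were in the class of the longest genes, and Gria3 was in one with a median of -0.11. Cacng2, in the same class as Gria3, rose. Cacng3, Cacng7 and Cacng8 were in a class with a median of 0.19, where Cacng3 rose and Cacng7 fell. Cacng4 was in one with a median of 0.03. The part of length in the fall of the pore subunits was not tested.

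With 1 library left out, Gria1, Gria2, Gria3, Cacng2, Cacng3 and Cacng7 kept their sign in 6 of 6 fits, but each of the 5 calls ended in 3 or 4 of them. For Gria2 it ended without Input replicate 1, IP replicate 2, IP replicate 3 or Input replicate 3, at log2 -0.91, -0.80, -0.87 and -0.88 (edgeR adjusted p = 0.0731, 0.122, 0.117 and 0.0856). For Gria3 it ended without the same 4 libraries, at -1.04, -0.96, -1.14 and -1.11 (edgeR adjusted p = 0.0613, 0.0853, 0.0854 and 0.0618). Without IP replicate 1, the highest IP library for the pore subunits, the falls were larger, at -1.35 and -1.55, and Gria1 passed at -1.15 (edgeR adjusted p = 0.0134). Cacng2 lost its call without IP replicate 2, Input replicate 2, IP replicate 3 or Input replicate 3, at 0.74, 0.59, 0.60 and 0.66 (edgeR adjusted p = 0.0776, 0.124, 0.114 and 0.0669). Cacng3 lost it when either library of replicate 2 (0.98 without IP and 0.88 without Input) or IP replicate 3 (1.03) was left out (edgeR adjusted p = 0.0627, 0.0682 and 0.0505). Cacng7 lost it without IP replicate 1, IP replicate 2, Input replicate 2 or Input replicate 3, at -0.79, -0.77, -0.93 and -0.63 (edgeR adjusted p = 0.0863, 0.118, 0.0675 and 0.0758). These 5 genes passed in the blocked fit, with edgeR adjusted p of 0.00111, 0.000202, 0.00882, 0.00259 and 0.00144 for Gria2, Gria3, Cacng2, Cacng3 and Cacng7.

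**Figure D5:**
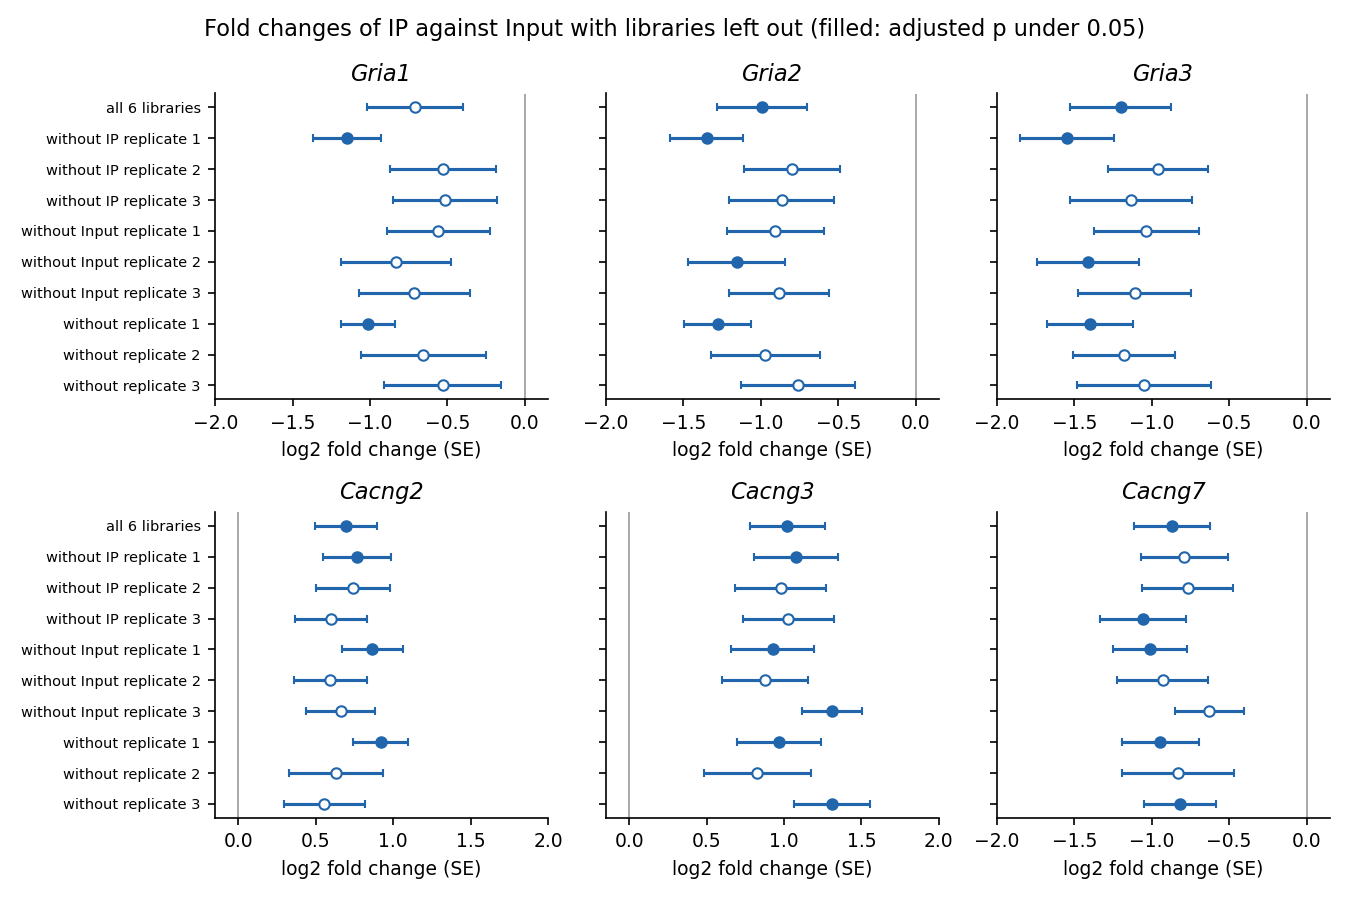
Log2 fold change of IP against Input (horizontal axes, bars are SE) for 6 genes with all libraries and with 1 library or both libraries of a replicate number left out, filled where the edgeR adjusted p was under 0.05. Each value stays on its side of 0, and open symbols mark fits in which the gene was not called.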

How the data were processed

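The members and gene lists were chosen with earlier results of these data known. Ribosome-bound RNA and Input of mouse thalamus were sequenced, 3 libraries each, with group and replicate read from the titles. Each replicate number had its own lane in the descriptions, so lane and replicate cannot be separated. The authors deposited whole-number read counts per gene, made with STAR 2.0.0e on mm10 and HTSeq, per the submitters' processing notes. For annotation, counting mode and strand, the value is not given in the sources used here. Summary rows stayed out of library sizes. Alignments at more than 1 place were on average 40.8% of records in IP and 25.8% in Input, and ambiguous ones 1.79% and 9.34%.

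Genes were filtered with filterByExpr, scaled by TMM and tested with edgeR 4.0.16 (R 4.3.3), quasi-likelihood, two-sided, Benjamini-Hochberg over 16496 genes, threshold 0.05. DESeq2 1.42.0 and limma-voom 3.58.1 were alternatives. Lengths and sequences came from GENCODE M21 (basic transcripts, GRCm38), and all 9 genes matched by symbol. Epb41l1 was found under its older symbol Epb4.1l1. Shares were tested by exact permutation, 10 values in all. Named companion genes are up to 3 called per direction with the largest change and a mean of at least 5 CPM, or the 2 most abundant where none was called. For genes nearest to a pore subunit, clone accessions and genes under 5 CPM were left out.

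Deviations of same-numbered IP and Input libraries from their group means correlated across genes at 0.456, 0.215 and 0.246 for replicates 1, 2 and 3. All exceeded 0.1, so the numbers in the titles were taken to pair the libraries. The labels state no paired test, and the fit without the block stayed the main one. On simulated counts of IP against Input (16841 genes tested), the test found 0 of 70 genes with a true change of log2 0.5. It found 4 of 70 where the change was log2 1, and 28 of 54 where it was log2 2. Only these few genes were changed in the simulation, whereas 25.2% of genes were called in the data. The adjustment for many genes is stricter in such a setting, so these rates need not hold for the real fit. No 2 libraries of a group agreed within sampling noise.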

Additional observations from a re-analysis of the deposited data

How the results depend on the processing

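Cacng8 had the fewest reads of the 9 genes, with 13 to 226 a library. Its libraries also spread widely, with an SD of 50.9% of the mean in IP and 68.8% in Input. Under 8 other scalings, filters or tools, Gria2, Gria3, Cacng3 and Cacng7 stayed called in 8 and Cacng2 in 6. Cacng2 had a log2 fold change of 0.61 with upper-quartile factors and 0.57 with a stricter filter (at least 5 CPM in 3 libraries), which left 1 gene called higher in each. That filter moved the log2 fold changes of the genes it kept by a median of -0.12, and upper-quartile factors moved them by -0.09. With the replicate block (pairing by title number) Gria1 passed at -0.79, 2624 genes in all were higher, and the companion lists had 23 higher and 9 lower, against 1583, 10 and 3 without it. The block ended or added no other call among the 9 genes. The companion count of lower genes was 5 by DESeq2 and 5 without a filter on low counts. The cause of these shifts was not tested.

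With 1 library or 1 replicate number left out (9 fits, fewer samples in each), the count of higher genes ranged from 83 to 1640 and of lower genes from 651 to 2598, both lowest without replicate 2. Of the 9 members 0 to 2 were higher and 0 to 4 lower, and of the companions 0 to 16 and 0 to 5. Log2 fold changes ranged from -1.15 to -0.52 for Gria1, -1.35 to -0.76 for Gria2, -1.55 to -0.96 for Gria3, 0.56 to 0.92 for Cacng2, 0.83 to 1.31 for Cacng3 and -1.05 to -0.63 for Cacng7. For the uncalled genes Gria4 and Cacng8 they ranged from -0.61 to -0.049 and from 0.82 to 1.87. Cacng4 ranged from -0.038 to 0.52, with its sign reversed without Input replicate 3 (-0.038) and without replicate 3 (-0.012), and the difference in its share of the TARPs ranged from -0.094 (without Input replicate 3) to 0.77 percentage points. Of 100 recomputed differences of the shares and the TARP ratio, this was the 1 reversal. Some could not reverse: the replicate block leaves each of these differences unchanged, and so does scaling by the longest transcript for the TARP shares. Without replicate 3 the blocked fit keeps 1 residual degree of freedom and was not used.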
